A study of Mus musculus with 16 samples.

Results

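The genes for making, storing, taking back up and breaking down noradrenaline, dopamine and serotonin were followed in the dorsal root ganglia (DRGs) of mice with spared nerve injury (SNI) or sham surgery that received desipramine (DMI) or saline. The set holds 9 genes of the 52636 listed for each mouse: Th, Ddc, Dbh, Gch1, Slc18a2, Slc6a2, Slc6a4, Maoa and Maob. They were picked by name, for their place in monoamine metabolism, and include Slc6a2, the noradrenaline transporter that DMI blocks. All 9 were found by Ensembl identifier, and all 9 were among the 21371 genes that passed the filter on low counts.

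The study asked how weeks of DMI, a tricyclic antidepressant given for neuropathic pain, act on the transcriptome of sensory ganglia under a lasting nerve injury. RNA from L3-6 ganglia of 16 male C57BL/6J mice (C57Bl6/J in the labels), 3 to 4 months old per the study's methods, was sequenced with 1 mouse per library and 4 mice per group. SNI-Saline and SNI-DMI mice had the common peroneal and sural branches of the left sciatic nerve tied and cut with the tibial branch spared, while Sham-Saline and Sham-DMI mice were operated on without that injury. Sham-DMI and SNI-DMI mice were given DMI at 15 mg/kg by intraperitoneal injection 2 times per day for 3 weeks, and Sham-Saline and SNI-Saline mice were given the saline vehicle on the same schedule. No mouse carried a transgene or a deletion according to the labels. Treatment began 4 weeks after surgery by the labels and the study's results, and 4 months after it by its methods. The pooled ganglia hold neurons with cut axons beside neurons with intact axons, and the side that was harvested is not given in the sources used here.

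Noradrenaline is made from the amino acid tyrosine in a short chain of enzymes. Tyrosine hydroxylase (Th) makes L-DOPA with a pterin cofactor whose synthesis starts at GTP cyclohydrolase 1 (Gch1), DOPA decarboxylase (Ddc) makes dopamine, and dopamine beta-hydroxylase (Dbh) turns dopamine into noradrenaline inside vesicles. The vesicular transporter VMAT2 (Slc18a2) loads monoamines into vesicles, the plasma membrane transporters for noradrenaline (Slc6a2) and serotonin (Slc6a4) clear them from outside the cell, and the monoamine oxidases A and B (Maoa, Maob) break them down on the outer membrane of mitochondria. In the DRG, Th is best known as a marker of C-fibre low-threshold mechanoreceptors, the neurons of gentle touch in hairy skin, whereas noradrenaline itself is released mainly by sympathetic fibres, whose cell bodies lie in other ganglia. GTP cyclohydrolase 1 has been studied in the DRG for its link to pain sensitivity.

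Between 41194238 and 73920332 reads were counted on genes per mouse, with both extremes in Sham-DMI. CPM denotes the count of a gene scaled to the normalized library size by edgeR, and a gene with 0 counts in a library could hold up to 3 counts, which is 0.0412 to 0.0749 CPM and covers counting error only. The tissue field of the labels reads spinal cord, and the cell type field dorsal root ganglia. Sensory neuron markers were abundant in all libraries, with means of 927 CPM for Avil and 1160 CPM for Scn10a, while of 7 spinal cord genes Olig2, Slc6a5, Slc32a1, Opalin and Mnx1 averaged 0.0153 to 0.124 CPM, Olig1 0.394 CPM and Aqp4, a water channel of astrocytes, 10.6 CPM. Of the marker genes of sympathetic neurons, Phox2a and Hand2 had at most 2 counts in any library, and Gata3 at most 9. Gata2 and Chrna3, also counted among these markers, averaged 2.55 and 31.2 CPM. The numbers that end the sample titles run from 17 to 20 for Sham-DMI, from 21 to 24 for SNI-DMI, from 33 to 36 for SNI-Saline and from 37 to 40 for Sham-Saline. The labels do not say what these numbers stand for. If they follow the order in which libraries were made or run, neither treatment nor surgery can be told apart from that order. In whole ganglia, fewer cells of a type and less RNA per cell cannot be told apart either.

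The promoters of 3 members are shown. Slc18a2 in the Sham-DMI mice and Slc6a4 in the SNI-Saline mice passed the threshold used below. Th came near that threshold in the SNI-DMI mice but did not pass it. Promoters of the other members that passed it are not shown. The sequences are from RefSeq on GRCm38.p6 and run from 250 bases before the annotated start to 20 bases after it, 5′ to 3′ on the strand of the gene. Capitals mark the cAMP response element TGACGTCA and the AP-1 site TGANTCA, which were searched on both strands and cannot overlap each other at the same position.
Th, chr7:142899976-142900245, minus strand: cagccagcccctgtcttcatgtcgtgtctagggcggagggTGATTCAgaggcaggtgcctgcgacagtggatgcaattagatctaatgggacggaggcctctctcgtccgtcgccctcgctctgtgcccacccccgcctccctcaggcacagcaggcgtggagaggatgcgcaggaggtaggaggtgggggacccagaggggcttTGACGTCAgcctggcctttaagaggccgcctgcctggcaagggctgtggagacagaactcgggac
Slc18a2, chr19:59260628-59260897, plus strand: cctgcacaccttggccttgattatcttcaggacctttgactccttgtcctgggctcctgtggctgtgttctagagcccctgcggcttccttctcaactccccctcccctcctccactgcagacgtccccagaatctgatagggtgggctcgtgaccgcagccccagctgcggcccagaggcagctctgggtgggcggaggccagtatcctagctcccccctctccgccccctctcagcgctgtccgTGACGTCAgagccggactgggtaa
Slc6a4, chr11:76998347-76998616, plus strand: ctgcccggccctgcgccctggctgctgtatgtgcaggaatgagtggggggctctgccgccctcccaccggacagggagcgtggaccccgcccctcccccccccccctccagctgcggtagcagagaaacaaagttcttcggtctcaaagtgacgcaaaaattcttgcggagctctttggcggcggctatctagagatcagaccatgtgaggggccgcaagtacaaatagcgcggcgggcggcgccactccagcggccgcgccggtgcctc

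The cAMP response element of Th starts 45 bases before the annotated start, and that of Slc18a2 starts 4 bases before it. Th also holds an AP-1 site 210 bases before the start, and 1 promoter of Ddc holds one 129 bases before it. Neither motif is in the Slc6a4 window. The promoter table matched 7 of the 9 members, with 8 promoters, of which 2 hold the cAMP response element and 2 the AP-1 site. Over all 32851 promoters searched across the same 300 bases, 1.79% hold the first motif and 7.81% the second. Slc6a2 and Maob were not matched.

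Members differed widely in level. Levels between genes are compared here as CPM per kilobase of exon, averaged over the 16 mice. Th was highest at 66.9 ± 12.1 (SD, n = 16) and lay above 96.8% of tested genes, followed by Maoa at 16.5 ± 1.3. Maob averaged 2.15, Slc18a2 0.969, Gch1 0.767 and Ddc 0.305 CPM per kilobase. Slc6a4 at 0.148, Dbh at 0.0407 and Slc6a2 at 0.0254 CPM per kilobase lay at the bottom of the tested genes, at percentiles 9.6, 1.3 and 0.3. The ranges over the mice were apart for Th against Maoa, Maoa against Maob, and Gch1 against Ddc. The other neighbours in this order overlapped: Slc18a2 was above Gch1 in 12 of 16 mice, Ddc above Slc6a4 in 14, and Dbh above Slc6a2 in 10. The first enzyme of the pathway was thus among the abundant transcripts of the ganglion, while the enzyme of the last step and the DMI target were near the limit of detection.

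**Figure D1:**
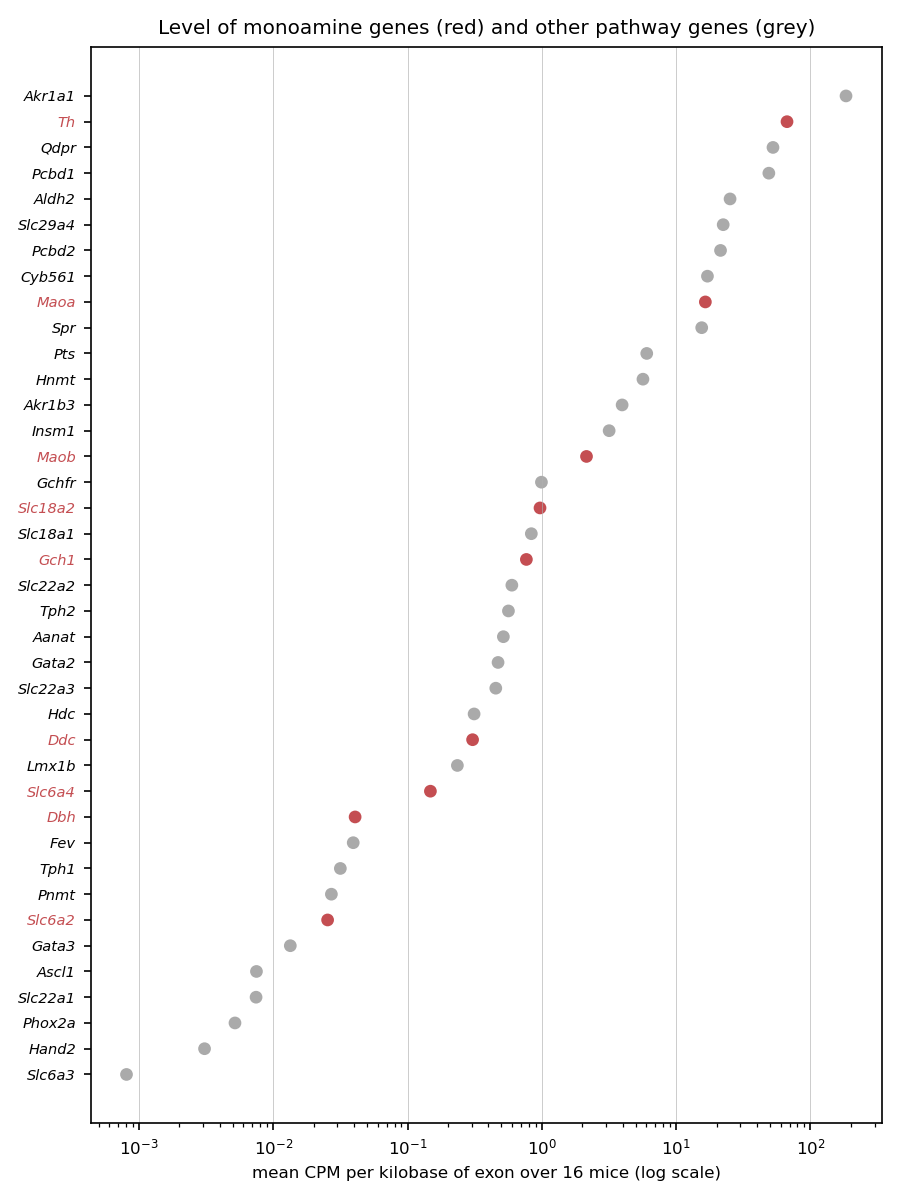
Mean level of the 9 monoamine genes (red) and of 30 other genes of the pathway (grey) over 16 mice, as CPM per kilobase of exon on a log axis. Th (66.9) sits near the top, beside the enzymes of cofactor recycling, and Slc6a4, Dbh and Slc6a2 sit in the lower part.

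Other genes of the pathway covered a like range of levels. The pterin enzymes Qdpr and Pcbd1, which recycle the cofactor, averaged 52.6 and 49.0 CPM per kilobase, and the aldehyde reductase Akr1a1 averaged 184. The tryptophan hydroxylases, which start serotonin synthesis, were low, at 0.564 for Tph2 and 0.0316 for Tph1 CPM per kilobase. The plasma membrane monoamine transporter Slc29a4, which carries monoamines at low affinity, stood at 22.4 and thus far above Slc6a2 and Slc6a4. The adrenaline enzyme Pnmt and the dopamine transporter Slc6a3 had at most 6 and 1 counts in any library.

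SNI alone was followed by higher levels of Slc6a4 and Dbh, 2 of the rarest members, and by no call among the other 7. In SNI-Saline versus Sham-Saline, 12.0% of all tested genes had an adjusted p under 0.1 by edgeR's quasi-likelihood test with Benjamini-Hochberg adjustment, the threshold for a call throughout, with 5.85% called higher and 6.18% called lower. The 2 of 9 members called, both higher, thus stand beside a background in which such calls were common, and Dbh passed the filter on low counts only through SNI mice. At a nominal p under 0.05 there were 3 members (Slc18a2 besides) and 23% of tested genes, and DESeq2 called 1 member, Slc18a2, and 21.2% of the genes it tested. Slc6a4, the serotonin transporter, rose 5.09-fold and Dbh, which makes noradrenaline, rose 4.1-fold.

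Slc6a4 (ENSMUSG00000020838, chr11:76998603-77032340, plus strand) stood at 0.243, 0.282, 0.125 and 0.242 CPM in the Sham-Saline mice, on 8 to 20 counts. In the SNI-Saline mice it stood at 0.562, 1.35, 1.29 and 1.38 CPM, on 31 to 90 counts. Each injured mouse was above each sham mouse, with the first SNI-Saline mouse apart below the other 3. On the log2 scale the change was 2.35 (SE 0.438, adjusted p = 0.00965, edgeR). The groups also separated in an exact two-sided permutation test (p = 0.0286, the smallest that 4 against 4 mice can give), and 15.4% of tested genes had groups that did not overlap in this comparison. DESeq2 gave an unadjusted p of 5.88e-08 and no adjusted p, because its filter on low means set the gene aside. The call held without any single library, with log2 fold changes of 2.17 to 2.58 and adjusted p of 0.00556 to 0.0485.

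Dbh (ENSMUSG00000000889, chr2:27165233-27183200, plus strand) had 2 to 4 counts in each Sham-Saline mouse, or 0.0348, 0.0565, 0.0312 and 0.0604 CPM, which is about the limit that a count of 0 allows. It had 10 to 18 counts in the SNI-Saline mice, or 0.181, 0.163, 0.161 and 0.275 CPM. The groups did not overlap, and the log2 fold change was 2.03 (SE 0.622, 95% interval 0.73 to 3.34, adjusted p = 0.0615, edgeR). No sham mouse of either treatment held more than 6 counts of Dbh. The gene thus passed the filter on low counts only through SNI mice, where it was high, which limits what the test can show. The call rested on few reads: leaving out replicate 1, 3 or 4 of Sham-Saline, or replicate 1, 2 or 4 of SNI-Saline, ended it, with log2 fold changes of 1.82 to 2.19 and adjusted p up to 0.158.

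The markers of injured sensory neurons moved with both genes. The summed level of Atf3, Sprr1a, Gal, Npy and Ecel1, genes induced in neurons whose axon is cut, was 29.6 to 41.6 CPM in Sham-Saline and 159 to 183 CPM in SNI-Saline, and 4 of the 5 were called higher. Sympathetic markers summed to 17 to 51.5 and 17.7 to 40.4 CPM, nearly all of it Chrna3, with 0 of the 2 tested genes (Gata2 and Chrna3) called by edgeR, 0 at a nominal p under 0.05 and 0 with DESeq2. Phox2a and Hand2 stood at 0 to 2 counts per library. Macrophage markers summed to 46.1 to 51.7 and 49.0 to 83.3 CPM with 1 of 4 called higher (Cd68, 0.77 on the log2 scale). The oligodendrocyte gene Olig1 averaged 0.278 CPM in Sham-Saline and 0.709 CPM in SNI-Saline (adjusted p = 0.0992, edgeR). Its groups overlapped, and DESeq2 did not call it. The part of these cells in the levels of Slc6a4 and Dbh was not tested.

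**Figure D2:**
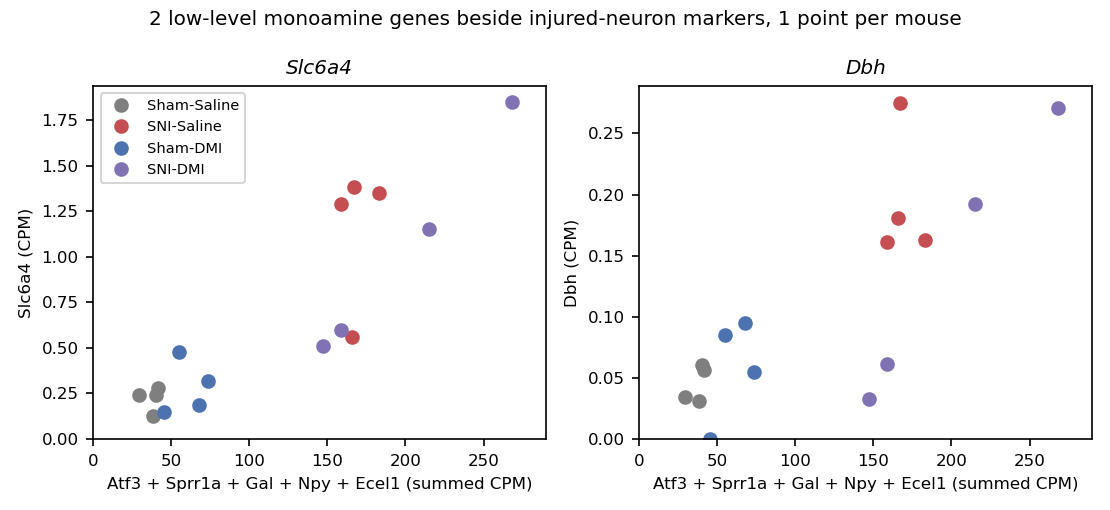
Slc6a4 (left) and Dbh (right) in CPM against the summed CPM of 5 markers of injured sensory neurons, 1 point per mouse and 1 colour per group. All 8 SNI mice lie at 147 marker CPM or more and all 8 sham mice at 73.3 or less, and the SNI-DMI mice with the highest marker sums (215 and 268) have the highest Slc6a4 and Dbh of their group. These mice also have the highest sums of some other marker lists of their group, such as those of macrophages and Schwann cells.

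The synthesis genes upstream of Dbh gave no call in the saline groups. Th (ENSMUSG00000000214, chr7:142892752-142931128, minus strand) stood at 145, 115, 139 and 169 CPM in Sham-Saline and at 140, 155, 140 and 125 CPM in SNI-Saline. The SNI-Saline values lay within the range of Sham-Saline, with a log2 fold change of −0.02 (95% interval −0.29 to 0.25). Ddc (ENSMUSG00000020182, chr11:11814101-11898144, minus strand) averaged 1.31 ± 0.356 and 1.51 ± 0.317 CPM, and Gch1 (ENSMUSG00000037580, chr14:47153895-47189413, minus strand) 4.81 ± 0.222 and 4.95 ± 0.463 CPM (SD, n = 4 each). For Gch1 the interval of the log2 fold change ran from −0.18 to 0.26. Over the same mice, 3 of the 6 markers of C-fibre low-threshold mechanoreceptors were called lower (Gfra2 −0.31, Zfp521 −0.29, Cacna1h −0.42 on the log2 scale), with summed levels of 399 to 500 CPM in Sham-Saline and 345 to 374 CPM in SNI-Saline.

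VMAT2 and the oxidases gave lower values that missed the threshold. Slc18a2 (ENSMUSG00000025094, chr19:59260896-59296012, plus strand) was at −0.39 on the log2 scale (SE 0.161, adjusted p = 0.149, edgeR, and −0.56 with adjusted p = 0.0593 without SNI-Saline replicate 4), and met the cut-offs that the study used, namely 0.05 for the nominal p and 0.32 for the size of the log2 fold change. So did Slc6a4 and Dbh, and 7.15% of all tested genes. The study applied these cut-offs to DESeq2, whereas here and below they are applied to the edgeR fit. Maoa (ENSMUSG00000025037, chrX:16619698-16687818, plus strand) had −0.1 (95% interval −0.21 to 0.01) and its neighbour Maob (ENSMUSG00000040147, chrX:16709282-16817366, minus strand) had −0.35 (95% interval −0.78 to 0.08). Slc6a2 (ENSMUSG00000055368, chr8:92960079-93001667, plus strand) had −0.91 (adjusted p = 0.359), but a single mouse set its size. The median log2 fold change of the 9 members was −0.022, beside −0.001 over all genes tested.

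**Figure D3:**
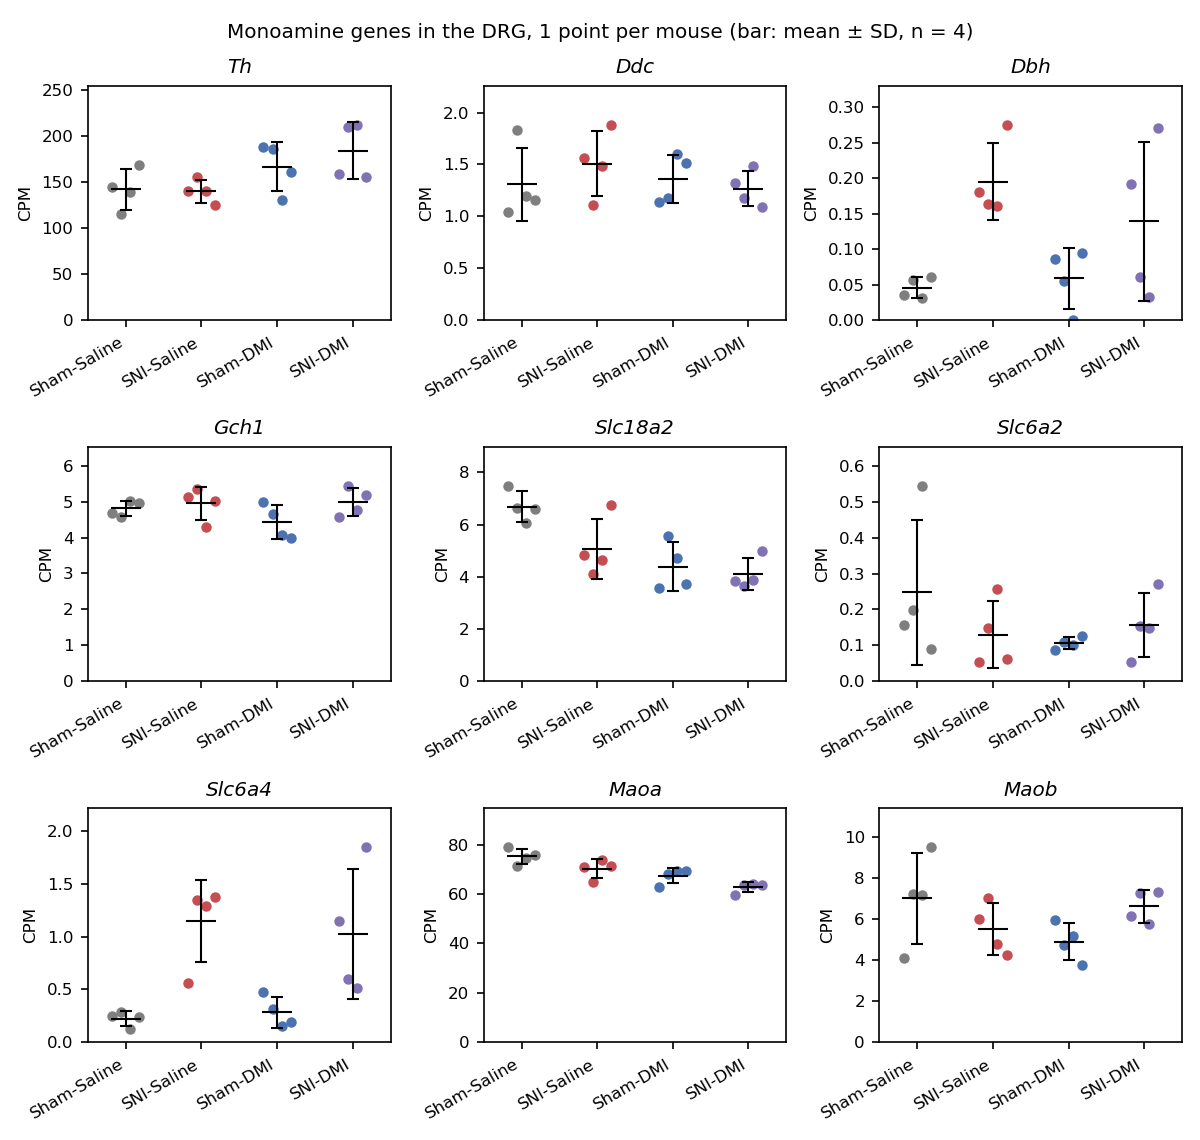
Level of each monoamine gene in CPM by group, 1 point per mouse with the mean and SD (n = 4), on linear axes from 0. Slc6a4 is higher in both SNI groups than in the sham group of the same treatment, Slc18a2 and Maoa are lower in Sham-DMI than in Sham-Saline, and Slc6a2 has 1 high mouse in Sham-Saline (0.545).

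In sham-operated mice the storage transporter and both breakdown enzymes were called lower with DMI. Of these calls, only that of Slc18a2 held without any single library. In Sham-DMI versus Sham-Saline, which shares the Sham-Saline mice with the comparison above, Slc18a2, Maoa and Maob were called, 3 of 9 members and all lower. In this comparison 23.4% of all tested genes were called and 11.9% were called lower, more than in any other comparison here. The same count of 3 members had a nominal p under 0.05, beside 30.6% of tested genes, and DESeq2 called 3 members and 28.4% of the genes it tested. The fitted levels were 0.657 of the saline level for Slc18a2, 0.698 for Maob and 0.895 for Maoa. The genes of synthesis gave no call.

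Slc18a2 stood at 7.48, 6.62, 6.06 and 6.58 CPM in Sham-Saline and at 3.55, 5.57, 4.7 and 3.72 CPM in Sham-DMI. The highest Sham-DMI mouse was below the lowest Sham-Saline mouse, and 17.1% of tested genes had groups that did not overlap. The log2 fold change was −0.61 (SE 0.163, adjusted p = 0.0175, edgeR), and the call held without any single library (−0.73 to −0.5, adjusted p up to 0.0707) and under each of 8 other analyses of the same libraries (adjusted p of 0.00288 to 0.0355). An exon of Slc18a2 overlaps the antisense gene Gm29261, which had at most 4 counts in any library, beside 188 to 469 counts of Slc18a2, and it is not stated whether counting used strand. Introns of Slc6a4 and Ddc also hold an antisense gene each (Gm12343 and 1700042O10Rik).

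Cells known to hold VMAT2 were looked at through their markers, and further cell types of the ganglion beside them. Mast cell markers (8 genes) summed to 120 to 139 CPM in Sham-Saline and 117 to 138 CPM in Sham-DMI, nearly all of it Kit, and without Kit to 5.86 to 11.6 and 5.75 to 9.94 CPM. Platelet markers (5 genes) summed to 14.6 to 18.7 and 16.5 to 20.5 CPM, and 0 genes of either list were called by edgeR. At a nominal p under 0.05 there were 0 mast cell genes and 1 platelet gene, and DESeq2 called the same numbers. The sums of pericyte markers were lower in each Sham-DMI mouse (202 to 229 CPM) than in each Sham-Saline mouse (235 to 270 CPM), with 1 of 4 called (Abcc9, −0.6 on the log2 scale). Macrophage markers summed to 36.6 to 47.0 against 46.1 to 51.7 CPM, with Mrc1 called lower (−0.4, adjusted p = 0.0734, edgeR). Satellite glia markers summed to 718 to 775 against 679 to 741 CPM, with Fabp7 called higher (0.31) and Cdh19 lower (−0.46). The injured-neuron markers were higher, at 45.6 to 73.3 against 29.6 to 41.6 CPM, with 4 of 5 called. Endothelial markers summed to 49.9 to 62.3 against 55.5 to 83.5 CPM, fibroblast markers to 357 to 514 against 385 to 591 CPM and Schwann cell markers to 3600 to 6400 against 3840 to 5630 CPM, none of them called by edgeR, with 2, 0 and 0 genes at a nominal p under 0.05 and 1, 0 and 0 with DESeq2. Sympathetic markers summed to 19.2 to 34.1 against 17 to 51.5 CPM, nearly all of it Chrna3. This sum thus follows 1 gene, while Phox2a and Hand2 stood at 0 to 2 counts per library. Both tested genes of the sympathetic list (Gata2 and Chrna3) had log2 fold changes below 0 (median −0.472). Of these, 0 were called by edgeR, 0 had a nominal p under 0.05 and 0 were called by DESeq2. The part of these cells in the level of Slc18a2 was not tested.

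Maoa, which prefers serotonin and noradrenaline as substrates, stood at 79.0, 71.3, 74.6 and 75.8 CPM in Sham-Saline and at 62.8, 68.1, 69.2 and 69.1 CPM in Sham-DMI. The groups did not overlap, but the distance was small, at −0.16 on the log2 scale (SE 0.0508, adjusted p = 0.0389, edgeR). The call ended when replicate 1 or 3 of Sham-Saline or replicate 1 of Sham-DMI was left out (adjusted p = 0.15, 0.111 and 0.181, edgeR). It also ended with no filter and with the compared groups alone (adjusted p = 0.107 and 0.116, edgeR). The log2 fold change turned to 0.0095 when trends on GC content and length were removed. Maob stood at 4.1, 7.23, 7.18 and 9.51 CPM in Sham-Saline and at 5.94, 4.71, 5.17 and 3.78 CPM in Sham-DMI. The groups overlapped, since the first Sham-Saline mouse was among the lowest of all. The log2 fold change of Maob was −0.52 (SE 0.207, adjusted p = 0.0962, edgeR), and without Sham-Saline replicate 4 it was −0.34 (adjusted p = 0.31). Of the fits without 1 library, only those without Sham-Saline replicate 1, SNI-Saline replicate 4 or Sham-DMI replicate 1 called Maob. The fit with the replicate number as a block gave 2 calls, without Maob (adjusted p = 0.135). Maob was also not called with RLE size factors, the compared groups alone or the trends removed (adjusted p = 0.105, 0.16 and 0.145, edgeR).

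Slc6a2, the transporter that DMI blocks, was close to the limit of detection in every group. It stood at 0.157, 0.198, 0.545 and 0.0906 CPM in Sham-Saline and at 0.0854, 0.11, 0.0999 and 0.126 CPM in Sham-DMI. In the SNI groups it stood at 0.0543, 0.147, 0.257 and 0.0611 CPM with saline and at 0.0523, 0.153, 0.148 and 0.271 CPM with DMI. All 4 groups overlapped, on 3 to 35 counts per mouse, and Sham-Saline replicate 3 (35 counts) was above all others. The log2 fold change of Sham-DMI versus Sham-Saline was −1.21 (adjusted p = 0.175, edgeR), and −0.46 without that mouse (adjusted p = 0.676). That of SNI-Saline versus Sham-Saline likewise was −0.17 without it. Slc6a2 was called in no comparison by edgeR.

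In the sham mice Th had a log2 fold change of 0.23 with DMI (95% interval −0.04 to 0.5, and 0.34 with adjusted p = 0.0782 by edgeR without Sham-DMI replicate 3), Ddc 0.04, Gch1 −0.12 and Dbh 0.42, and Slc6a4 had 0.37 (95% interval −0.64 to 1.38), none of them called in the fit of all mice. Slc18a2 and Maob also met the study's cut-offs, 2 members beside 11.5% of all tested genes. The median over the 9 members was −0.118, beside −0.021 over all genes.

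Under SNI, DMI was followed by no called change of the 9 genes, with Th and Maoa nearest to the threshold. In SNI-DMI versus SNI-Saline, which shares SNI-Saline with the first comparison, 0 of 9 members were called by edgeR and 2.93% of all tested genes were. At a nominal p under 0.05 there were 2 members, Th and Maoa, beside 18.5% of all tested genes, and DESeq2 on the same 16 libraries called the same 2, beside 11.6% of the genes it tested. Th had the higher level with DMI, and Maoa the lower.

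Th stood at 159, 210, 212 and 155 CPM in SNI-DMI, against 140, 155, 140 and 125 CPM in SNI-Saline. Replicates 1, 2 and 3 of SNI-DMI were above all SNI-Saline mice, and replicate 4 was level with the highest of them. The fit gave 0.39 on the log2 scale (SE 0.13, adjusted p = 0.127, edgeR), a 1.31-fold difference that met the study's cut-offs, as did 5.73% of tested genes. The adjusted p was 0.0476 with DESeq2, and ran from 0.0476 to 0.277 over 8 other analyses. It was under 0.1 without SNI-Saline replicate 2, Sham-DMI replicate 1 or 2, or SNI-DMI replicate 4, and ran from 0.0848 to 0.324 over the fits without a single library. An exact two-sided permutation test gave p = 0.0571. The study itself, with DESeq2 and its own cut-offs, named Th among the genes changed in this comparison.

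The SNI-DMI mice with high Th were those with high levels of the gentle-touch neuron markers, and also of the general sensory neuron markers. The 6 markers of C-fibre low-threshold mechanoreceptors summed to 361, 475, 424 and 350 CPM in the SNI-DMI mice in the same order, against 345 to 374 CPM in SNI-Saline. All 6 had log2 fold changes above 0 with a median of 0.112, beside −0.005 over all genes, and 0 were called by edgeR, 0 at a nominal p under 0.05 and 0 with DESeq2. The general sensory neuron markers summed to 2560, 2780, 2650 and 2450 CPM in the SNI-DMI mice, against 2530 to 2690 CPM in SNI-Saline. Pericyte sums were also highest in SNI-DMI replicates 2 and 3, and those of macrophage, Schwann cell, endothelial and fibroblast markers were lowest there. Satellite glia markers summed to 763 to 855 CPM in SNI-DMI and 684 to 772 CPM in SNI-Saline, with Fabp7 called higher (0.34 on the log2 scale) by edgeR, while Cdh19 had the opposite sign (−0.44, with means of 64.2 and 87.2 CPM, adjusted p = 0.124, edgeR). The other 2 markers, Kcnj10 and Glul, had 0.25 and 0.12, and DESeq2 called all 4. The part of any of these cell types in the level of Th was not tested.

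Maoa stood at 59.7, 63.8, 64.0 and 63.7 CPM in SNI-DMI and at 70.7, 64.7, 73.9 and 71.3 CPM in SNI-Saline. All SNI-DMI mice were below all SNI-Saline mice, as were the groups of 13.3% of tested genes in either direction. The fitted change was −0.16 on the log2 scale (SE 0.0508, adjusted p = 0.119, edgeR), and the other analyses gave −0.17 to −0.015. Its adjusted p was 0.0844 without SNI-Saline replicate 2 and 0.0678 without Sham-DMI replicate 1. The sham mice had the same fitted change to 2 decimals, and the difference of both DMI effects was 0.0 (95% interval −0.16 to 0.16).

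**Figure D4:**
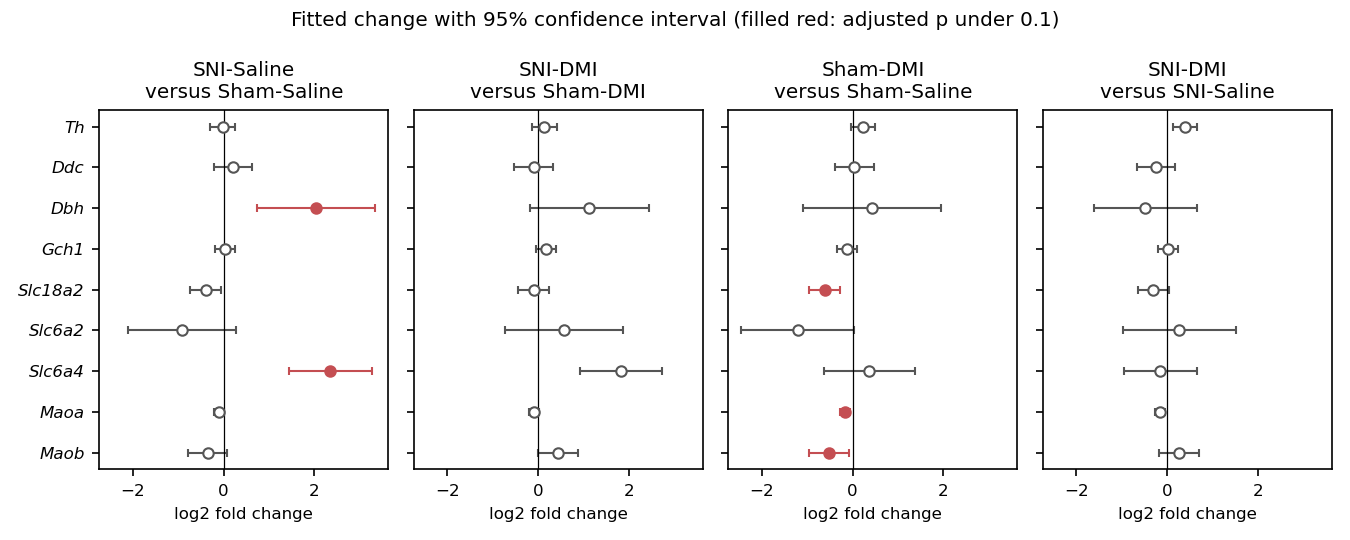
Fitted log2 fold change of each monoamine gene with its 95% confidence interval in 4 comparisons, with genes at an adjusted p under 0.1 (edgeR) filled in red. The intervals of Slc6a4, Dbh and Slc6a2 are wide, on few counts, and those of Th, Gch1 and Maoa are narrow.

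The remaining members gave small or uncertain values with DMI under SNI. Slc18a2 stood at 3.85, 3.64, 3.88 and 5.0 CPM in SNI-DMI and at 4.82, 4.12, 4.63 and 6.75 CPM in SNI-Saline. The groups overlapped, since replicate 4 of each group stood above the rest, and the log2 fold change was −0.31 (95% interval −0.65 to 0.03, adjusted p = 0.316, edgeR). Slc6a4 had −0.16 (95% interval −0.96 to 0.65) and Dbh −0.48 (95% interval −1.61 to 0.65), so that neither a loss nor a gain of up to these bounds could be told from no change. Maob had 0.26, Slc6a2 0.27, Ddc −0.25 and Gch1 0.01, with Gch1 bounded between −0.21 and 0.23.

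Within the DMI-treated mice, Slc6a4 again had the largest log2 fold change of the members with injury. SNI-DMI versus Sham-DMI gave 0 called members of 9 by edgeR, where 0.402% of tested genes were called (0.374% higher and 0.0281% lower), and 1 member, Slc6a4, at a nominal p under 0.05, beside 12.1% of tested genes. DESeq2 called 1 member, Slc6a4, beside 2.55% of the genes it tested. Slc6a4 stood at 1.15, 0.597, 0.511 and 1.85 CPM in SNI-DMI and at 0.478, 0.316, 0.15 and 0.189 CPM in Sham-DMI. The groups did not overlap, as for 5.04% of tested genes, although the highest Sham-DMI mouse was close to the lowest SNI-DMI mouse. Its log2 fold change of 1.83 (SE 0.43, adjusted p = 0.108, edgeR) met the study's cut-offs, as did 5.41% of tested genes. Without any single library it ran from 1.35 to 2.16, with adjusted p from 0.04 to 0.289, and it was called without SNI-Saline replicate 1, Sham-DMI replicate 1 or SNI-DMI replicate 2 or 3.

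The other members overlapped between these groups. Dbh stood at 0.192, 0.0613, 0.033 and 0.271 CPM in SNI-DMI and at 0.0854, 0.0549, 0 and 0.0946 CPM in Sham-DMI, and 2 of the 4 SNI-DMI mice were within the range of the sham mice. Its log2 fold change was 1.13 (95% interval −0.18 to 2.44). SNI-DMI replicates 1 and 4, which held the most Slc6a4 and Dbh, also held the highest injured-neuron sums, 215 and 268 CPM against 159 and 147 CPM. The same mice held the highest sums of macrophage (71.4 and 58.8 against 44.9 and 41.1 CPM), Schwann cell, endothelial and fibroblast markers, and of mast cell markers without Kit. Their sums for sensory neurons, C-fibre low-threshold mechanoreceptors and pericytes were the lowest, and the other lists did not set these mice apart. The part of any of these cells in this spread was not tested. Maob had 0.44 (adjusted p = 0.414, edgeR), Gch1 0.17, Th 0.14, Slc18a2 −0.1 and Maoa −0.1. The median over members was 0.171, beside 0.001 over all genes.

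The DMI effect was not called different between SNI and sham mice for any member. The difference of the DMI effects gave 0 called members of 9 and 0.0% of all tested genes by edgeR, 0 members and 0.0664% of genes with DESeq2, and 1 member, Maob, at a nominal p under 0.05, beside 7.92% of tested genes. Maob had 0.78 (SE 0.292, 95% interval 0.17 to 1.4, adjusted p = 0.619, edgeR), with −0.52 in sham and 0.26 in SNI mice. It met the study's cut-offs, as did 3.45% of tested genes. Slc6a2 had 1.48 (95% interval −0.28 to 3.25), Slc6a4 −0.52 (95% interval −1.82 to 0.77) and Th 0.16 (95% interval −0.22 to 0.55).

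No relation between members from mouse to mouse passed the threshold, which with 16 mice does not exclude one. With group means removed, 0 of the 36 pairs of members had an adjusted p under 0.1 in a permutation test within groups. The closest pair was Dbh and Slc6a4, with Pearson's r = 0.712 (permutation p = 0.0208, adjusted p = 0.362) and Spearman's rho = 0.682 (permutation p = 0.0222, adjusted p = 0.239) over 16 mice, and r = 0.577 without the 2 mice farthest from the median. Th and its downstream enzyme Ddc had r = −0.559 (adjusted p = 0.362 by permutation). Maoa and Maob had r = −0.558 (adjusted p = 0.373 by permutation). Ddc and Gch1 had r = −0.548, and Gch1 and Maob r = 0.529 (adjusted p = 0.362 by permutation for each).

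The genes outside the set nearest to the members are given as a description over 16 mice, with group means removed and 15744 genes searched. The best of so many genes is bound to have a high r, so these values cannot be set against those between members. The genes nearest to Maob were Pip5k1b (r = 0.97), the nicotinic receptor subunit Chrna3 (r = 0.96) and Hpse (r = 0.95). Chrna3 averaged 36.7 and 39.1 CPM in Sham-Saline and SNI-DMI, and 25.2 and 24 CPM in SNI-Saline and Sham-DMI, and was called in no comparison. Maob averaged 7.01 and 6.62 CPM in the former pair of groups and 5.51 and 4.9 CPM in the latter. Among the nearest to Th were Psd and Rnf112 (both r = 0.9), and nearest to Gch1 were Tollip (r = 0.94), Ablim3 (r = 0.92) and Dpysl5 (r = 0.9). For Slc18a2 they were Tmem47 (r = 0.94), Klhl9 (r = 0.91) and Zfp60 (r = 0.9), and for Maoa Zfp719 (r = 0.92), Orc3 (r = 0.9) and Washc5 (r = 0.89). The low members gave lower values, with Top2a, a topoisomerase of dividing cells, nearest to Slc6a4 (r = 0.82), Stmn4 nearest to Dbh (r = 0.85), Hpdl nearest to Ddc (r = 0.87) and Abhd15 nearest to Slc6a2 (r = 0.82).

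Of the 33 other pathway genes, 24 passed the filter. Akr1a1, an aldehyde reductase of monoamine breakdown, was the only one of the 24 called in SNI-Saline versus Sham-Saline, beside 12.0% of all tested genes (0.17 on the log2 scale, adjusted p = 0.0764, edgeR), where Akr1b3 had 0.3 (adjusted p = 0.12) and Spr 0.15 (adjusted p = 0.208). In Sham-DMI versus Sham-Saline, 3 of the 24 were called, beside 23.4% of all tested genes: Akr1a1 rose by 0.28 (adjusted p = 0.00361), sepiapterin reductase Spr, the last enzyme of cofactor synthesis, rose by 0.22 (adjusted p = 0.042), and the transcription factor Lmx1b fell by 0.6 (adjusted p = 0.0854). With saline, Akr1a1 averaged 443 ± 17.9 CPM in sham and 497 ± 25.6 CPM in SNI mice, and with DMI 537 ± 37.9 and 553 ± 14.9 CPM (SD, n = 4 each), and Sham-Saline did not overlap with SNI-Saline or Sham-DMI. Lmx1b, a factor of serotonin neurons that is also found in other tissues, averaged 1.46 ± 0.426 CPM in Sham-Saline and 0.963 ± 0.188 in Sham-DMI, with overlap.

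In SNI-DMI versus SNI-Saline, 0 of the 24 were called by edgeR, 7 had a nominal p under 0.05 and 1 was called by DESeq2, beside 2.93%, 18.5% and 11.6% of all genes. Among the smallest p-values there were those of Akr1a1 (log2 fold change 0.15, adjusted p = 0.147, edgeR) and the cofactor recycling enzyme Pcbd1 (0.2, adjusted p = 0.197, edgeR). In SNI-DMI versus Sham-DMI, 0 of the 24 were called by edgeR, 2 had a nominal p under 0.05 and 0 were called by DESeq2, beside 0.402%, 12.1% and 2.55% of all genes, with Slc29a4 at 0.32 (adjusted p = 0.315, edgeR), the aldehyde dehydrogenase Aldh2 at 0.15 and the vesicular transporter Slc18a1 at −0.22. Slc29a4 also had the smallest p for the difference of the DMI effects (0.44, adjusted p = 0.619, edgeR), followed by Aldh2 at 0.18 and Akr1a1 at −0.12. The serotonin enzyme Tph2 averaged 1.6 and 1.67 CPM in sham mice with saline and DMI, and 1.57 and 1.66 CPM in SNI mice, whereas Slc6a4 averaged 0.223 and 0.283 CPM in the former and 1.14 and 1.03 CPM in the latter.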

How the data were processed

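Each of the 16 libraries was a stranded mRNA library from the L3-6 DRGs of 1 mouse. The authors deposited raw, whole-number counts per Ensembl gene, made from reads aligned to mm10. The submitters' processing notes name HISAT2 and HTSeq. Their versions, the gene annotation and whether counting used strand are not given in the sources used here. Reads outside genes (18.83% to 20.44%) were left out. Replicate libraries differed far beyond counting error. Symbols, coordinates and exon lengths are from GENCODE M21 on GRCm38 and matched 52489 of 52636 genes.

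Genes were kept by filterByExpr, scaled by TMM and tested in 1 fit of all 16 libraries, with 1 coefficient per group, by the quasi-likelihood test of edgeR 4.0.16 (R 4.3.3) with Benjamini-Hochberg adjustment over all tested genes. Exact permutation tests (two-sided, log2 CPM with a prior count of 2) compared single genes, and pairs of members by 100000 permutations within groups. The procedure was tested on simulated data. Alternatives were other normalizations and filters, a replicate block, the compared groups alone, GC and length trends removed (mgcv 1.9.3, GC of the longest transcript), DESeq2 1.42.0 and each library left out. All 9 members, any called gene of the pathway list with the 3 smallest p-values per comparison, and the genes most alike in pattern (mean of at least 1 CPM) are named, except some genes that are not reported here. Members, marker lists and tests were chosen with earlier results of these data known.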

Additional observations from a re-analysis of the deposited data

Results flagged for a closer look

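In 4 of the 36 combinations of gene and group, the lowest or highest mouse stood apart from the other 3 by Dixon's test, which chance alone gives in about 1 of 20 such groups. Slc18a2 was at 5.0 CPM in SNI-DMI replicate 4, above 3.64 to 3.88 CPM in the other 3 mice. Slc6a4 was at 0.562 CPM in SNI-Saline replicate 1, below 1.29 to 1.38 CPM in the other 3, and that mouse had an injured-neuron marker sum of 166 CPM, within the 159 to 183 CPM of its group. Maoa was at 62.8 CPM in Sham-DMI replicate 1, below 68.1 to 69.2 CPM, and at 59.7 CPM in SNI-DMI replicate 1, below 63.7 to 64.0 CPM.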

How the results depend on the processing

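Of 1040 log2 fold changes of single members under the alternatives, 959 kept their direction and their side of the threshold, 29 no longer passed it, 22 newly passed it and 30 changed direction. In SNI-Saline versus Sham-Saline, the 2 members called became 0 with at least 10 counts in every library, which removes Slc6a4, Dbh and Slc6a2 by its construction, 1 with GC and length trends removed (Slc6a4) and 1 with DESeq2 (Slc18a2), which gives Slc6a4 and Dbh no adjusted p, beside 15.4%, 4.94% and 21.2% of all genes called (12.0% reported). In SNI-DMI versus SNI-Saline, 0 became 1 with no filter, 2 with the compared groups alone and 2 with DESeq2, beside 1.49%, 8.86% and 11.6% of all genes called (2.93% in the reported fit). In Sham-DMI versus Sham-Saline, 3 became 1 with the compared groups alone and 1 with the trends removed (Slc18a2 in both), beside 18.3% and 15.9% (23.4% reported). In SNI-DMI versus Sham-DMI, 0 became 1 with no filter, 1 with the trends removed and 1 with DESeq2 (Slc6a4), beside 0.811%, 0.749% and 2.55% (0.402% reported). Leaving out each library gave 1 to 2, 0 to 2, 1 to 3 and 0 to 1 called members in these comparisons, and 0 for the difference of the DMI effects. Where no construction is named, the cause was not tested.

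Directions changed as follows. Gch1 in SNI-DMI versus SNI-Saline was −0.00027 with upper-quartile normalization, and Maoa in Sham-DMI versus Sham-Saline was 0.0095 with trends removed. The difference of the DMI effects on Maoa was −0.019 with upper-quartile normalization, −0.012 with RLE size factors, −0.00063 with no filter, −0.024 with trends removed and −0.013 with DESeq2. Without single libraries, log2 fold changes ran from −0.11 to 0.08 for Th in SNI-Saline versus Sham-Saline, in SNI-DMI versus SNI-Saline from −0.058 to 0.068 for Gch1, −0.13 to 0.83 for Slc6a2 and −0.61 to 0.082 for Slc6a4, from −0.034 to 0.25 for Ddc in Sham-DMI versus Sham-Saline, from −0.23 to 0.049 for Slc18a2 in SNI-DMI versus Sham-DMI, and from −0.048 to 0.022 for the difference on Maoa. Whether replicate numbers pair the mice could not be decided. Of 24 same-number pairs, 5 had correlated deviations over 0.1 (range −0.081 to 0.184), and pairs with other numbers ran from −0.248 to 0.169. Of 16 libraries, 7 correlated best with their own number. A fit with the replicate number as a block gave 2 called members in SNI-Saline versus Sham-Saline, 2 in Sham-DMI versus Sham-Saline and 0 in the other comparisons. Correlations between members gave 0 of 36 pairs under an adjusted p of 0.1, also with a prior count of 0.5 and without the 2 farthest mice. Depth limits Dbh, Slc6a2 and Slc6a4 in the sham groups, at 0 to 35 counts per mouse.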
